A study of Mus musculus with 2 samples.

Results

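The genes described here are 9 targets of the autoantibodies that patients with autoimmune polyendocrine disease make, and they are 9 of the 23003 genes with a symbol in the count tables of Clp1 knockdown and control mTEChi. They were chosen by name, through the RefSeq identifiers of the tables. The rule did not use how they differed between the libraries, although earlier results of these data were known. Where a gene had several RefSeq transcripts, the one with the highest sum of reads in the 2 libraries was used. They are Th, Tph1, Ddc, Gad1, Gad2, Tgm4, Bpifb1, Nlrp5 and Tg.

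mTEChi are the medullary epithelial cells of the thymus that carry high levels of MHC class II. With the transcriptional regulator Aire, they express proteins of many peripheral organs and show them to developing thymocytes, so that self-reactive cells are removed or diverted. People who lack AIRE develop autoimmune polyendocrine syndrome type 1, in which autoantibodies recognize enzymes of neurotransmitter synthesis, gut and airway proteins, and proteins of the prostate and ovary, among others. Thyroglobulin, the product of Tg, is a classic autoantigen of autoimmune thyroid disease.

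The study asked how Clp1, a factor of the machinery that cleaves and polyadenylates the 3' ends of transcripts, acts on the antigens that mTEChi express. RNA was sequenced from mTEChi of 1 lentigenic B6 mouse. The total RNA was made into libraries with a low-input kit (Smarter Ultra Low Input RNA, with Nextera). The mouse carried 3 shRNAs against Clp1 behind the doxycycline-inducible TRE3G promoter, with a green fluorescent reporter (ZsGreen, called GFP here) on the same transcript. It also carried the TetOn3G transactivator behind the EF1 promoter. The mouse ate food with doxycycline at 2 g per kg for 2 weeks from 3 weeks of age, and mTEChi (CD45-, MHCII high, Ly51 low or intermediate) were then sorted into GFP+ cells (Clp1 knockdown) and GFP- cells (Ctr). Both groups thus shared the animal, its age and the doxycycline, there was 1 library per group, and the sources used here do not say whether every GFP- cell carried the constructs.

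The count table summed to 28464803 reads in Ctr against 37524730 in the knockdown library. Clp1 had 1573 reads in Ctr against 812 in the knockdown library, a scaled level of 39.7% of Ctr (95% interval 36.4 to 43.2). By the paper's account, the profiled mouse was the pup with less Clp1 mRNA in GFP+ than in GFP- mTEChi. This value is thus not independent of how the mouse was picked. Aire, the marker of mature mTEChi, had 7462 and 8264 reads (log2 ratio -0.23). All 12 mTEChi markers had reads in both libraries. Their summed scaled reads were 486268 in Ctr against 521011 in the knockdown library. Most of these were from the MHC class II genes H2-Aa, H2-Ab1 and H2-Eb1 (log2 ratios -0.21, -0.03 and 0.34). The sums thus mainly follow these genes. Of the other markers, Epcam, Krt5, Krt14 and Cd40 were called higher and Cd86 lower. Markers of other cells were lower in the knockdown library for 8 of 8 endothelial, 4 of 5 red cell, 5 of 6 B cell, 9 of 12 thymocyte, 6 of 7 fibroblast, 5 of 6 cortical epithelial (cTEC) and 4 of 7 myeloid genes (with 1 myeloid gene, Xcr1, higher). The summed scaled reads fell from 22032 to 2107 for the endothelial list and from 62036 to 2072 for the red cell list. Their part in the results below was not tested.

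**Figure D1:**
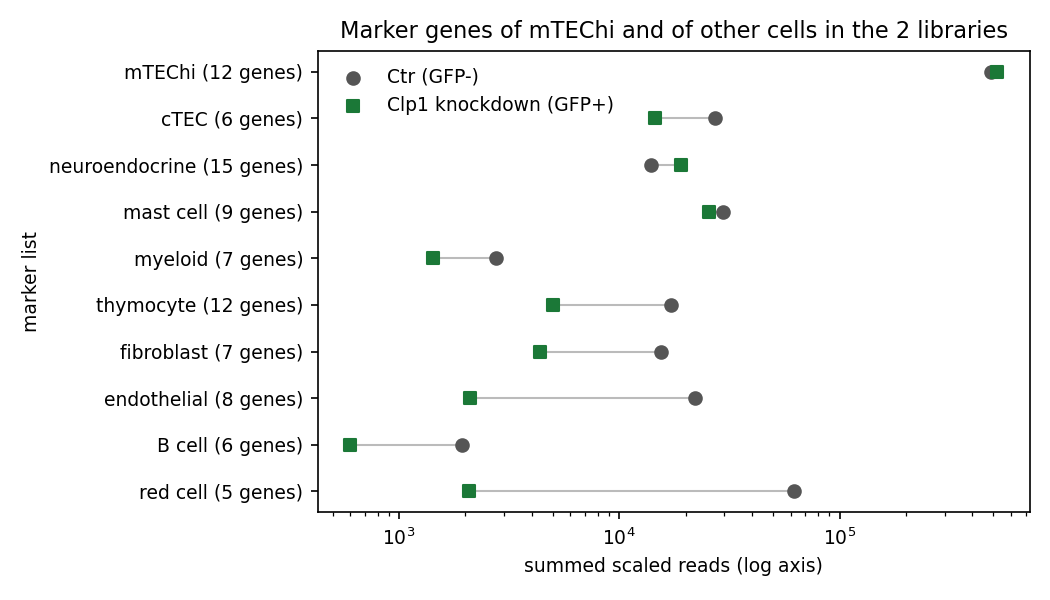
Summed scaled reads (log axis) of marker genes of mTEChi and of 9 other kinds of cells in the Ctr library (circles) and the Clp1 knockdown library (squares), each a single library without error bars. The mTEChi sums, which come mostly from H2-Aa, H2-Ab1 and H2-Eb1, nearly coincide. The endothelial and red cell sums lie more than an order of magnitude lower in the knockdown library.

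Throughout, a log2 ratio is that of scaled reads, Clp1 knockdown over Ctr, where the scaling makes the typical gene equal. Its 95% interval follows from how the reads split between the libraries and, like all intervals here, covers counting error only. To be called higher or lower, a gene needed 10 reads in the 2 libraries together, a 2-fold difference and an interval on 1 side of 0. There is no replicate, so no p-value was computed, and fewer cells that express a gene and less RNA per cell cannot be told apart.

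Of the 9 genes, 8 had at least 10 reads, and only Gad2 fell short. Tph1 and Gad1 were called higher in the knockdown library, Th and Tg were called lower, and Ddc, Tgm4, Bpifb1 and Nlrp5 were not called. Calls were frequent over the whole table. Of 18543 genes with 10 reads, 21.9% were called higher, 19.7% lower and 41.6% either way. Among the 10508 genes whose reads lay within the range of the 8 genes, 56.2% were called, 29.1% higher and 27.1% lower, beside 4 of the 8, so a called difference is no more frequent here than among other genes of such depth. The median log2 ratio of the 8 genes was -0.59 with 0.5 added to scaled reads, and that of all genes was 0.03.

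**Figure D2:**
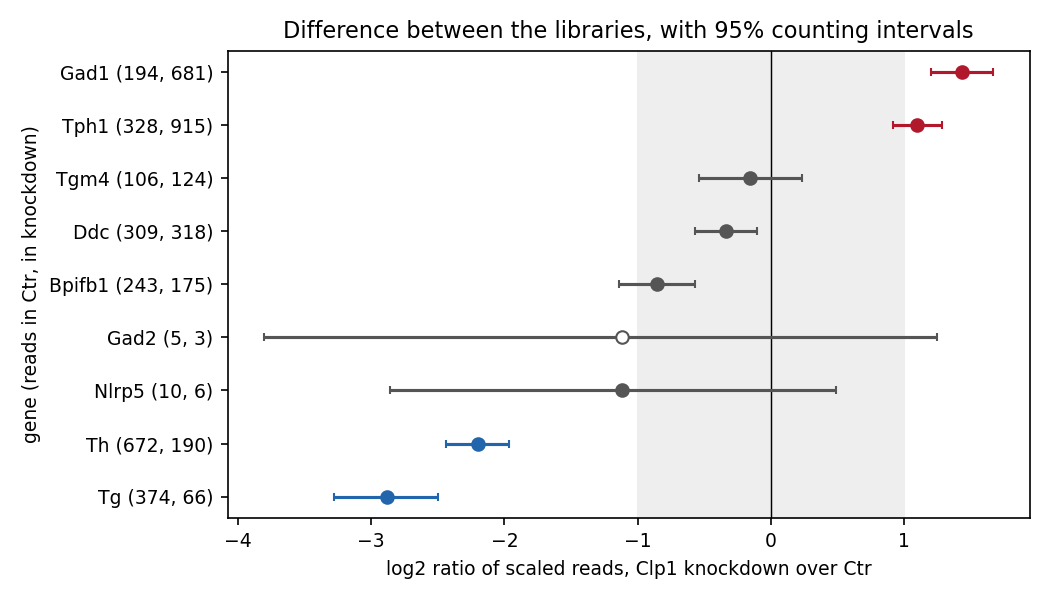
Log2 ratio of scaled reads, Clp1 knockdown over Ctr, for each of the 9 genes (points) with 95% counting intervals (bars), with the reads in each library beside the name. The grey band spans less than 2-fold, red and blue points are genes called higher and lower, grey points were not called (for Nlrp5 because its interval spans 0), and the open point is Gad2, with fewer than 10 reads. Tph1 and Gad1 lie to the right, Th and Tg to the left.

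The levels of the genes spanned a wide range. In Ctr, the order by reads per kilobase of exon, scaled to the depth of the library (RPKM), was Th, Tph1, Ddc, Bpifb1, Gad1, Tg, Tgm4, Nlrp5 and Gad2, from 13.4 down to 0.031, a 430-fold range. Neighbours whose intervals overlapped were Tph1 and Ddc, Ddc and Bpifb1, Tg and Tgm4, and Nlrp5 and Gad2. In the knockdown library the order was Tph1, Gad1, Ddc, Th, Bpifb1, Tgm4, Tg, Nlrp5 and Gad2, from 14.1 down to 0.014, and here only Th and Bpifb1, and Nlrp5 and Gad2, had overlapping intervals. Th thus passed from the first to the fourth place, and Gad1 from the fifth to the second. The place of Tgm4 rests mostly on reads of a last exon that overlaps another gene, as described below.

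**Figure D3:**
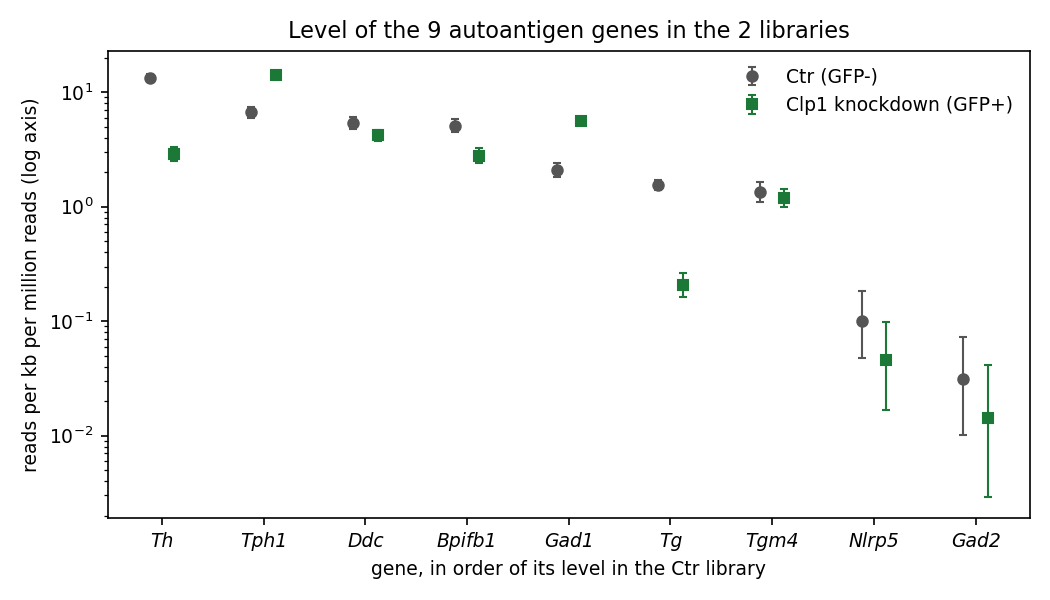
Level of the 9 genes in RPKM (log axis) in the Ctr library (circles) and the Clp1 knockdown library (squares), in the order of the Ctr levels. Bars are exact 95% Poisson intervals of the count. Tph1 and Gad1 are above their Ctr level, Th and Tg below it, and Nlrp5 and Gad2 stay near the bottom in both libraries.

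Tph1, Th and Ddc encode enzymes of monoamine synthesis. Tyrosine hydroxylase (Th) makes the first step to the catecholamines and tryptophan hydroxylase 1 (Tph1) the first step to serotonin outside the brain, and both are aromatic amino acid hydroxylases, while aromatic L-amino acid decarboxylase (Ddc) takes the products of either one to dopamine or serotonin. The transcripts differ in where they start, so the bases upstream of the annotated starts are shown first. They are the last 150 of the 250 bases before the start in RefSeq's promoter table (build GRCm38.p6). Each window was found once, without a mismatch, in the mm9 genome (NCBIM37), whose coordinates are given. Capitals mark matches, on either strand, to TATAAA, to the cAMP response element TGACGTCA or to CCAAT, all of them known promoter elements. Of 32851 promoters in the table, 12.4% hold the first, 1.55% the second and 33.8% the third within 250 bases.
Th, chr7:150085901-150086050, minus strand: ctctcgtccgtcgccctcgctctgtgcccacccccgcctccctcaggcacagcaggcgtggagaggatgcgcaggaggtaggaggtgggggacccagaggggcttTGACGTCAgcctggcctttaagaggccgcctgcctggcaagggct
Tph1, upstream start, chr7:53927908-53928057, minus strand: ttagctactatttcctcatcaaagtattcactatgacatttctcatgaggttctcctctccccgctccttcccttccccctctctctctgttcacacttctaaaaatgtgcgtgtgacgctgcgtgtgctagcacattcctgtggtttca
Tph1, downstream start, chr7:53922748-53922897, minus strand: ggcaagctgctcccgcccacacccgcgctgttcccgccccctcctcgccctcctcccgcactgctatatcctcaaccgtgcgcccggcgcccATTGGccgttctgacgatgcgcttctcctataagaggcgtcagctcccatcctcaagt
Ddc, upstream start, chr11:11798148-11798297, minus strand: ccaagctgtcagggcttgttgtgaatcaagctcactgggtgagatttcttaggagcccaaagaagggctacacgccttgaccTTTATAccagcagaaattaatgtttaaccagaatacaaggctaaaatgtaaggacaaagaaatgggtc
Ddc, downstream start, chr11:11790412-11790561, minus strand: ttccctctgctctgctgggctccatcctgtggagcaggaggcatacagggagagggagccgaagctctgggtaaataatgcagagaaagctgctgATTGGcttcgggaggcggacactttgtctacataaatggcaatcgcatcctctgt
Th held TGACGTCA at bases -45 to -38 from the start. The upstream Tph1 start had none of the 3 motifs in 250 bases, and the downstream one held CCAAT on the opposite strand at -58 to -54. The upstream Ddc start held TATAAA on the opposite strand at -68 to -63, and the downstream one CCAAT on the opposite strand at -55 to -51. These matches are a description of the sequence and say nothing of which factor binds there.

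Th (chr7:150078657-150117033, minus strand) had 672 reads in Ctr against 190 in the knockdown library, or 13.4 RPKM (12.4 to 14.5) and 2.88 RPKM (2.49 to 3.32). On the minus strand this span begins at base 150117033, whereas the start used for the sequence above, base 150085900, lies inside it. The span is thus not that of a transcript from this start. The knockdown level was 21.7% of Ctr, a log2 ratio of -2.20 (-2.44 to -1.97). Th was lower along the whole transcript. The coding exons before the last had 444 and 122 reads (log2 ratio -2.24) and the last coding exon with the 3'UTR had 223 and 68 (-2.09).

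Tph1 (chr7:53902500-53927907, minus strand) went the other way, with 328 reads in Ctr against 915 in the knockdown library. Its level was 6.65 RPKM (5.95 to 7.41) and 14.1 RPKM (13.18 to 15.02), and the log2 ratio was 1.10 (0.92 to 1.29). The coding exons before the last gave a log2 ratio of 1.03 and the last coding exon one of 1.22, so the difference was again alike along the coding transcript. Its 5'UTRs differed more. The 93 bp 5'UTR of NM_001136084, which by elimination goes with the downstream start, had 2 reads in Ctr against 24 in the knockdown library, and the 433 bp 5'UTR of NM_009414, whose length is that from the upstream start, had 0 and 20. Summed, these 5'UTRs had 2 and 44 reads (log2 ratio 4.08, 2.14 to 7.17), and this interval lies above that of the whole gene. Whether the 5'UTRs share bases was not checked, so a read could have been counted in both. How often a 5'UTR differs this much from its gene over all genes was not computed. Both annotated 5'UTRs therefore had reads in the knockdown library, and nearly none in Ctr.

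Ddc (chr11:11714104-11798047, minus strand), the enzyme downstream of both hydroxylases, had 309 reads in Ctr against 318 in the knockdown library, or 5.38 RPKM (4.80 to 6.01) and 4.20 RPKM (3.75 to 4.69). The log2 ratio was -0.34 (-0.57 to -0.11), under 2-fold, although the interval excluded 0. The annotated 5'UTRs again separate the starts. A 5'UTR that began at the downstream start would measure 79 bp, the length given for NM_016672, and that part had 0 reads in either library. The 141 bp 5'UTR of NM_001190448, which by elimination goes with the upstream start, had 22 reads in Ctr against 22 in the knockdown library (log2 ratio -0.38, -1.30 to 0.54). All Ddc reads that fell within a 5'UTR were thus in that of the upstream start, in both libraries. Of all 5'UTRs of 50 to 99 bp in the table, whatever the depth of their transcript, 53.2% had a read. The share among transcripts as deep as Ddc was not computed, so how unusual an empty one of 79 bp is cannot be said.

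Ddc was also the only one of the 9 genes on the study's list of Aire-sensitive genes with a proximal poly(A) site, and the only one whose distal 3'UTR had reads. The distal 3'UTR is the part of the last exon beyond the most proximal annotated poly(A) site, and the d3'UTR ratio is its read density over that of the part of the last exon upstream of the site. In Ctr, 45 reads lay in the 235 bp distal part and 73 in the 400 bp upstream part, a d3'UTR ratio of 1.05 (0.71 to 1.54). In the knockdown library there were 36 and 46 reads, a ratio of 1.33 (0.84 to 2.11). The log2 change was 0.34 with an interval of -0.54 to 1.23, so a change in either direction was not detectable at this depth. Over 5532 genes with a distal 3'UTR and at least 10 last-exon reads in each library, the change had a median of 0.00 and quartiles of -0.60 and 0.65. Tph1 has an annotated distal part of 46 bp, shorter than the 50-base read, and it had 0 reads in both libraries, as most parts under 50 bp did (9.54% of such distal parts had a read).

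The parts of Ddc did not move alike. The coding exons before the last had 154 and 199 reads (log2 ratio -0.01, -0.32 to 0.30), whereas the last coding exon with the proximal 3'UTR had 73 and 46, a log2 ratio of -1.04 (-1.61 to -0.49), and the distal 3'UTR one of -0.70 (-1.37 to -0.04). The last coding exon with the proximal 3'UTR, without the distal part, thus differed from the earlier exons by -1.04 on the log2 scale (-1.68 to -0.39). A like difference of 1 or more in either direction was found in 23.8% of the 13494 genes with 10 reads in each of these parts, and in 3 of the 7 genes here that could be compared (Ddc, Gad1 and Tgm4). The interval of the difference excluded 0 for Ddc and Gad1, but not for Tgm4 (-2.51 to 0.01) nor for the other 4 (Th, Tph1, Bpifb1 and Tg).

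**Figure D4:**
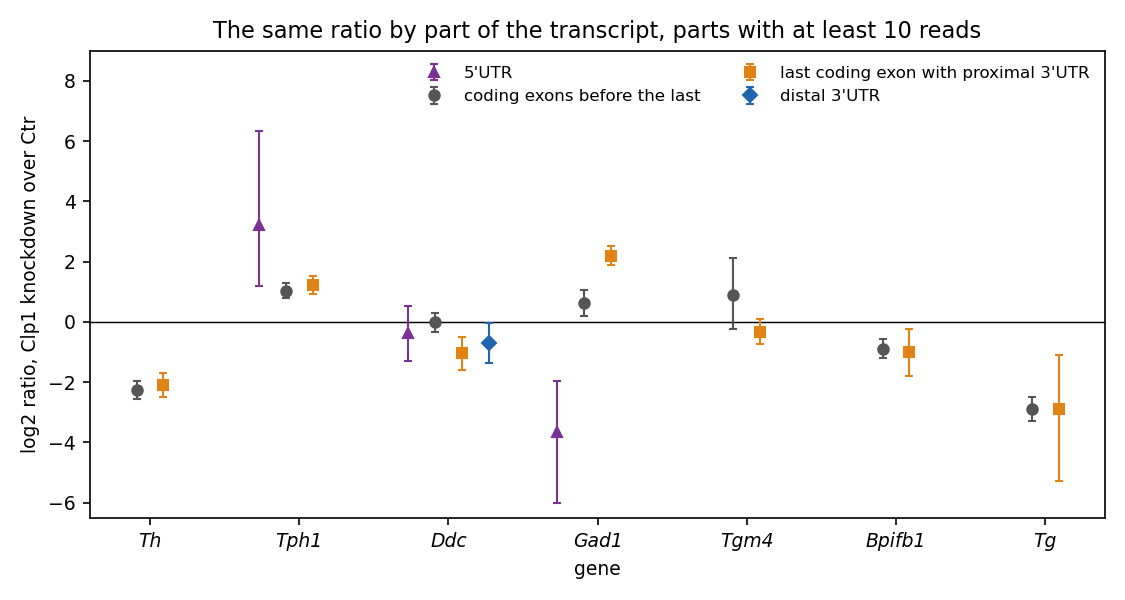
Log2 ratio, Clp1 knockdown over Ctr, in separate parts of the transcript for the 7 genes with at least 10 reads in both the earlier coding exons and the last one. Points are parts with at least 10 reads and bars 95% counting intervals. The parts of Th, Bpifb1 and Tg lie close together, whereas Gad1 runs from below 0 in its 5'UTR to above 2 in its last exon.

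The other monoamine genes, from synthesis of the cofactor to breakdown, mostly stayed within 2-fold. Of 16 with at least 10 reads, 3 were called higher, 1 lower and 12 neither way, with a median log2 ratio of 0.16. Tph2, the tryptophan hydroxylase of brain neurons, had 110 reads in Ctr against 1 in the knockdown library, a log2 ratio of -7.16 (-12.48 to -4.65). Both tryptophan hydroxylases were thus called, in opposite directions. Dbh, which turns dopamine into noradrenaline, had 4 and 54 reads (3.38, 1.94 to 5.30), opposite in direction to Th. The noradrenaline transporter Slc6a2 (16 and 53 reads, 1.35) was called higher as well. Pnmt, which makes adrenaline, had 141 and 210 reads (0.20), and the serotonin transporter Slc6a4 had 2102 and 2050 (-0.41), neither of them called. Gch1 and Pcbd1, which supply and recycle the tetrahydrobiopterin that both Th and Tph1 need, were just under 2-fold lower (-0.91 and -0.98), while Pts (0.55), Spr (0.12) and Qdpr (-0.11), which act in the same supply and recycling, were not called either.

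Cells that use these enzymes include neuroendocrine cells and, for Tph1, mast cells. The 15 neuroendocrine markers had 13992 summed scaled reads in Ctr against 19158 in the knockdown library, with 7 called higher, 3 lower and 5 neither way. Scg2, Scg3, Neurod1 and Pcsk1 were at 0 in Ctr and had 15 to 426 reads in the knockdown library, whereas Syp, Cpe and Pcsk2 were lower. The 9 mast cell markers summed to 29510 and 25520 scaled reads, most of them from Hdc, with 4 called higher, 1 (Tpsb2, 154 and 39 reads, -2.36) lower and 4 neither way. Among them, Cpa3 and Ms4a2 were at 0 in Ctr with 15 and 70 reads in the knockdown library. Their part in the differences of Th and Tph1 was not tested.

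Gad1 and Gad2 encode the glutamate decarboxylases that make the transmitter GABA, and GAD65, the product of Gad2, is a main autoantigen of type 1 diabetes. Gad1 (chr2:70391129-70440071, plus strand) had 194 reads in Ctr against 681 in the knockdown library, or 2.11 RPKM (1.82 to 2.43) and 5.62 RPKM (5.20 to 6.06), a log2 ratio of 1.43 (1.20 to 1.67). That ratio was an average over parts that differed. The 233 bp 5'UTR had 29 reads in Ctr against 3 in the knockdown library, a log2 ratio of -3.65 (-6.01 to -1.96). The coding exons before the last had 69 and 139 (0.63, 0.21 to 1.07), and the last coding exon with the 3'UTR had 90 and 537 (2.20, 1.87 to 2.54). The last exon held 56.6% of the reads of both exon parts in Ctr and 79.4% after knockdown. The log2 ratio of the last exon exceeded that of the earlier exons by 1.57 (1.01 to 2.11), where the quartiles over all 13494 genes were -0.24 and 0.40. In the earlier coding exons alone the difference was under 2-fold, and in the 5'UTR Gad1 was lower.

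Gad2 (chr2:22477725-22549394, plus strand) had 5 reads in Ctr against 3 in the knockdown library, 0.031 RPKM (0.010 to 0.073) and 0.014 RPKM (0.0029 to 0.042). A difference was not detectable at this depth. In Ctr 2 of the 5 reads lay in the 5'UTR and 3 in the last exon, and the 1584 bp of coding exons before the last had 0 reads in Ctr against 1 in the knockdown library. The level of Gad1 was far above that of Gad2 in both libraries.

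Among 9 other genes of GABA metabolism and transport with at least 10 reads, 2 were called higher, 1 lower and 6 neither way (median 0.17). Gadl1, a relative of the decarboxylases, had 3 and 19 reads (2.28, 0.52 to 4.68). Abat, the transaminase that degrades GABA, had 627 and 150 (-2.44, -2.71 to -2.18). Abat, which acts on the product of Gad1, was thus called in the opposite direction, and Slc32a1, which loads GABA into vesicles, had 0 and 3 reads.

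Tg (chr15:66502315-66682283, plus strand) encodes thyroglobulin, the scaffold on which thyroid hormone is made. It had 374 reads in Ctr against 66 in the knockdown library, or 1.56 RPKM (1.40 to 1.72) and 0.208 RPKM (0.161 to 0.265), the largest difference among the 9 genes. The knockdown level was 13.6% of Ctr (10.3 to 17.7), a log2 ratio of -2.88 (-3.28 to -2.50). The reads covered the coding exons, with 357 and 63 in those before the last and 17 and 3 in the last one, and both parts gave a log2 ratio of -2.88. In the ranking of all genes by RPKM, Tg lay above 42.0% of genes in Ctr and above 24.0% in the knockdown library. RefSeq's promoter table used here had entries for the other 8 genes.

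Genes that act with thyroglobulin were measured too. Of 11 thyroid genes with at least 10 reads, 6 were called lower, 2 higher and 3 neither way. Over all genes with 10 reads, 41.6% were called either way, and no share was computed at the depth of this list. The median log2 ratio was -1.78, and -0.40 over those with at least 50 reads. Duox1, which makes the hydrogen peroxide used to iodinate thyroglobulin, had 11 and 1 (-3.84). Slc26a4 (pendrin), which passes iodide to the follicle, had 268 and 45 (-2.95, -3.44 to -2.49), and Tshr, the receptor of thyrotropin, 54 and 20 (-1.81). The transcription factors Foxe1 and Hhex were lower too (-2.86 and -2.52). Slc5a5, the iodide importer, went the other way with 1 read in Ctr against 120 in the knockdown library (6.53, 4.02 to 11.84), as did the transcription factor Pax8 with 14 and 94 (2.37). Nkx2-1, the factor that defines thyroid cells together with Pax8, had 1 and 0 reads, so this defining marker was near 0 in both libraries. Iyd (-0.40) and Dio1 (0.41), which reclaim iodide and activate the hormone, stayed under 2-fold.

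**Figure D5:**
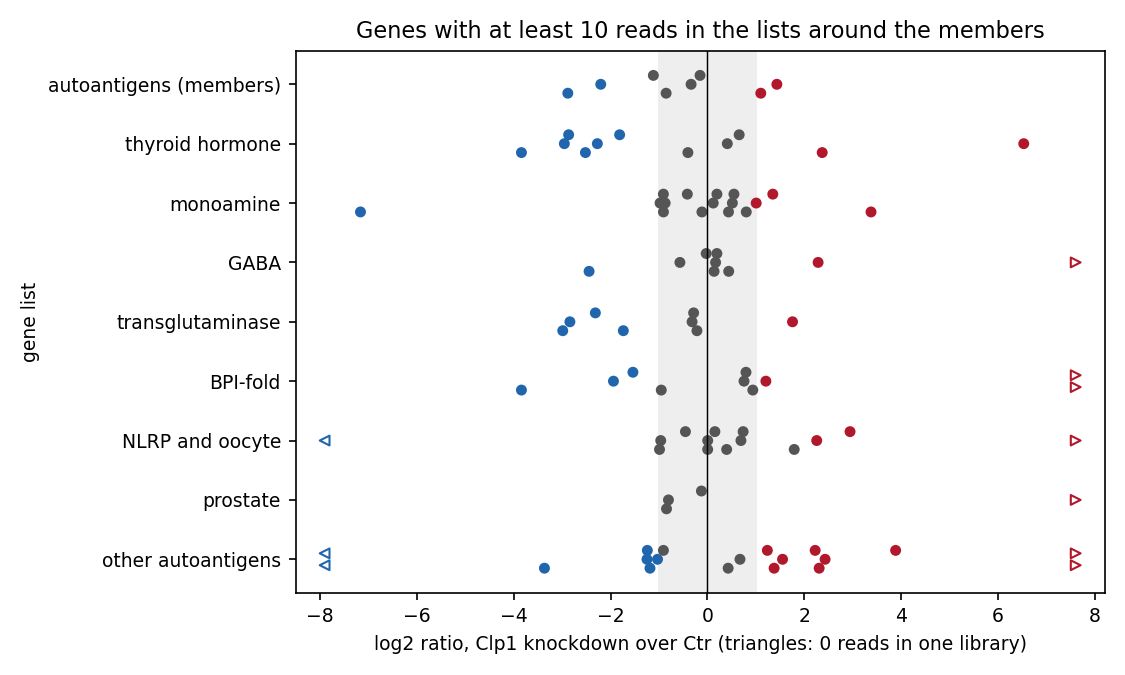
Log2 ratio, Clp1 knockdown over Ctr, of each gene with at least 10 reads in the 9 autoantigen genes and in 8 lists of related genes, one row per list. Red and blue points were called higher and lower, grey points were not called, and open triangles at the edges are genes with 0 reads in one library, drawn at an arbitrary position. Thyroid and transglutaminase genes lie mostly on the left, and the other lists spread to both sides.

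Tgm4 (chr9:122943857-122976679, plus strand) encodes a transglutaminase that the prostate secretes into semen. It had 106 reads in Ctr against 124 in the knockdown library, or 1.35 RPKM (1.10 to 1.63) and 1.19 RPKM (0.993 to 1.42), a log2 ratio of -0.15 (-0.54 to 0.24). Most of these reads cannot be assigned to Tgm4 with certainty. In the GENCODE vM1 annotation of mm9, the whole last exon of Tgm4 (chr9:122975850-122976679, 830 bases) lies within the 3'UTR exon of Zdhhc3, a palmitoyltransferase gene on the opposite strand that had 2168 and 1641 reads. The sources used here do not say whether reads were counted by strand. The last exon held 96 of the reads in Ctr against 100 in the knockdown library, and the 1871 bp of exons before it held 10 and 24. The read density of the last exon was 21.7 times that of the earlier exons in Ctr and 9.43 times after knockdown, where the medians over all genes were 1.41 and 1.48. In the earlier exons, which overlap no other exon, the log2 ratio was 0.88 (-0.23 to 2.11). A difference in Tgm4 was not detectable in these reads, and its level was 0.188 RPKM in Ctr and 0.342 RPKM in the knockdown library.

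Of 8 other transglutaminases with at least 10 reads, 4 were called lower, 1 higher and 3 neither way, beside 41.6% called either way over all genes. Their median was -1.02, and -0.32 over those with at least 50 reads. Tgm2, the tissue transglutaminase that is the autoantigen of coeliac disease, had 9175 and 1506 reads (-2.99, -3.07 to -2.91), and it is also abundant in endothelium, whose markers were lower in the knockdown library. Their part in this difference was not tested. Tgm7 (22 and 4 reads, -2.84) and Tgm6 (107 and 28, -2.31) were lower as well. Tgm1, which crosslinks the envelope of keratinocytes, had 79 and 347 (1.76, 1.40 to 2.13). Of 7 genes of prostate and seminal vesicle, 4 had at least 10 reads, and 1 of them, Svs2, was called, with 0 reads in Ctr against 31 (at least 7.95-fold higher if the empty library is set to a floor of 3 reads). The median over the 4 was -0.46. The prostate proteins Pbsn and Msmb had 0 reads in both libraries.

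Bpifb1 (chr2:154016554-154046105, plus strand) encodes a BPI-fold protein secreted by the airways and known as a lung autoantigen in AIRE deficiency. It had 243 reads in Ctr against 175 in the knockdown library, or 5.10 RPKM (4.48 to 5.79) and 2.79 RPKM (2.39 to 3.23). The log2 ratio was -0.85 (-1.14 to -0.57), just short of 2-fold, with an interval that excluded 0. The earlier exons (201 and 141 reads, -0.89) and the last exon (37 and 24, -1.81 to -0.22) differed alike. Of the 2 annotated 5'UTRs, that of NM_001012392 had 1 and 5 reads and that of NM_153418 had 0 in both libraries.

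Its relatives spread to both sides. Of 10 other BPI-fold genes with at least 10 reads, 3 were called higher and 3 lower, with a median of 0.78. This stands beside 41.6% called either way over all genes. Bpifb2 had 429 and 39 reads (-3.84, -4.35 to -3.36), and its neighbours in the family Bpifb3 (233 and 79, -1.94) and Bpifb5 (163 and 73, -1.54) were lower too. Bpifb6 had 0 reads in Ctr against 62 (at least 15.9-fold higher), and Bpifa3 had 0 and 16 (at least 4.10-fold). Bpifa1, a secreted protein of the upper airway, had 3041 and 6863 reads (0.80) and was not called.

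Nlrp5 (chr7:24170908-24226941, plus strand), also called MATER, is an oocyte protein of the subcortical maternal complex and the parathyroid autoantigen of AIRE deficiency. It had 10 reads in Ctr against 6 in the knockdown library, or 0.100 RPKM (0.048 to 0.184) and 0.046 RPKM (0.017 to 0.099), with a log2 ratio of -1.12 (-2.86 to 0.49). The reads did not lie in the same part. All 10 in Ctr were in the last coding exon with its 3'UTR, a part of 241 bp, and all 6 in the knockdown library were in the coding exons before it. At this depth the level could not be compared between the libraries, and no part held reads of both libraries.

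Of 19 genes of its family and complex, 14 had at least 10 reads. Of these, 3 were called higher, 1 lower and 10 neither way (median 0.27). Nlrp2 had 0 and 19 reads (at least 4.87-fold higher), Nlrp4e had 1 and 10 (2.94, 0.13 to 8.38) and Tle6, a partner of Nlrp5 in the complex, had 24 and 149 (2.26, 1.63 to 2.94). Nlrp9c had 47 reads in Ctr against 0 (at least 20.4-fold lower). Among other partners, Ooep had 1103 and 1596 reads (0.15) and Khdc3 448 and 585 (0.01), neither of them called.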

How the data were processed

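The authors deposited whole-number counts of reads for 30794 RefSeq transcripts, and for the 5'UTR, coding exons, last coding exon with proximal 3'UTR and distal 3'UTR of 27567 of them, with part lengths. The submitters' processing notes name the mm9 genome, Bowtie 1.0.0, bedtools and DESeq. By the paper's methods, only reads lying strictly inside an exon were counted, and isoforms share reads. Some parts under 50 bp, shorter than a read, still held reads (2.71% of such 5'UTRs and 9.54% of such distal 3'UTRs). The reason is not known. The authors' table of fold changes and p-values was not used.

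Symbols came from a RefSeq table by identifier, and 30216 transcripts had one. Size factors (median of ratios) were 0.877 for Ctr and 1.14 for the knockdown library. Intervals are Clopper-Pearson for ratios and Poisson for levels. Against 0 reads, folds are bounds with a floor of 3 reads in that library. The calling rule was tested on simulated data. Alternatives used edgeR 4.0.16 (TMM). Genes and lists were chosen with earlier results of these data known. All 9 genes were named, with the largest called genes of each list and reaction partners; some further list genes were named after their values were seen. Of the list symbols, 4 were not matched, and values of some list genes are not reported here. Of 845 coding exons of the study's annotation held here, 92.4% had identical coordinates in GENCODE vM1.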

Additional observations from a re-analysis of the deposited data

How the results depend on the processing

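No paired analysis was possible because each group has 1 library, and for the same reason no replicate could be left out. Over 8 alternatives (scaling by TMM, total reads or upper quartile, the transcript with the fewest reads, reads upstream of the distal 3'UTR, the knockdown library thinned to the depth of Ctr, and a GC or level trend subtracted), the log2 ratio ranged from -2.23 to -1.98 for Th, 1.02 to 1.19 for Tph1, 1.31 to 1.52 for Gad1 and -2.90 to -2.78 for Tg. That of Bpifb1 became -0.54 with the GC trend subtracted, where its interval in the main values ended at -0.57. With a required fold of 4 in place of 2, 0 genes were higher, while Th and Tg were still called lower. Subtracting the level trend brought the number called lower from 2 to 3, by adding Nlrp5 with its 16 reads (-2.16). The running median log2 ratio that was subtracted at its level was 1.04. At the level of Gad2 it was 2.50, and for the other genes it lay between -0.21 (Tgm4) and 0.03 (Th). Genes at the low levels of Nlrp5 and Gad2 thus typically had higher ratios, and the cause of this trend was not tested. Of 164 alternative values, 162 stayed within the interval of the main value or within 1.5 times the main count. This tally is a weak check, because some alternatives could not move some genes. Choosing another transcript or leaving out the distal part changed nothing for Gad2, Tgm4 and Tg. The intervals of the list medians were also wide, such as -2.94 to 2.33 for the thyroid list. With a minimum of 50 reads in place of 10, the median log2 ratio went from -0.59 to -0.34 for the 9 genes (-0.85 with a minimum of 1), from -1.78 to -0.40 for the thyroid list, from -1.02 to -0.32 for the transglutaminases, from -0.46 to -0.80 for the prostate list (-0.12 with a minimum of 1) and from 0.27 to 0.01 for the NLRP and oocyte list, as the number of genes changed. Depth limits Gad2 and Nlrp5, for which no difference could be read.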

Other observations

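Among 19 other autoantigens of polyendocrine and organ-specific autoimmunity with at least 10 reads, 9 were called higher and 7 lower in the knockdown library. Their median log2 ratio was 0.66. Over all genes with 10 reads, 21.9% were called higher, 19.7% lower and 41.6% either way. Among genes with reads in the range of the 8 genes above, 56.2% were called. No share was computed at the depth of this list. This list was written with earlier results of these data known, so its tally is a description only. Those called higher included Atp4b, the gastric proton pump subunit (0 reads in Ctr against 156 after knockdown, at least 40-fold higher), the islet antigen Ptprn2 (5 and 96, 3.88), Il17f (0 and 28, at least 7.18-fold) and Casr, the calcium-sensing receptor of the parathyroid (15 and 105, 2.43). Those called lower included Slc30a8, the zinc transporter of islets (50 and 0, at least 21.7-fold lower), the retinal protein Rbp3 (31 and 0, at least 13.4-fold) and Sox10 (95 and 12, -3.36). Atp4a, the other subunit of the gastric pump, was called lower (1572 and 1001, -1.03), opposite to Atp4b.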
